A study of Mus musculus with 8 samples.

Results

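The interferon regulatory factors are a family of transcription factors that share a DNA-binding domain and read short GAAA repeats in the promoters of interferon and immune genes. The members described here are Irf1, Irf2, Irf3, Irf4, Irf5, Irf7, Irf8 and Irf9, chosen by name and found in the count table by their Ensembl identifiers through GENCODE vM21 symbols. They are 8 of the 52636 genes in the table, and all 8 were among the 13847 genes that passed the filter on low counts. The RNA came from primary microglia of wild-type (WT) mice, C57BL/6 by the labels and C57BL/6N by the methods, sequenced in 4 libraries after LPS and 4 after vehicle. All cultures were derived from the brains of newborn mice by shaking microglia off mixed glial cultures, and were kept in DMEM with 10% fetal bovine serum and with CSF-1, the growth factor these cells depend on, at 10 ng/ml. The LPS group received 5 µg/ml lipopolysaccharide, a component of bacterial outer membranes that activates Toll-like receptor 4, for 24 h, and the vehicle group received the carrier for 24 h. The brains of several pups feed such a culture, astrocytes form its lower layer, and the cells have left the tissue that shapes them, which limits both groups as a model of microglia in the brain. The labels name the libraries of a group biological replicates without saying whether each came from its own culture, so p-values here measure the spread between these libraries, which may be partly technical.

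Signals from Toll-like receptors, cytosolic nucleic acid sensors and interferon receptors converge on this family. Irf3 and Irf7 wait in the cytoplasm and enter the nucleus after phosphorylation by the kinases Tbk1 and Ikbke, Irf5 is activated downstream of the adaptor Myd88, and Irf9 joins Stat2 in the complex that carries the type I interferon signal. Irf1 activates and Irf2 largely restrains genes with the same DNA element. Irf4 and Irf8 bind weakly alone and act with partners such as Spi1, the lineage factor of macrophages, and Irf8 takes part in microglial development.

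After LPS, Irf7, Irf1 and Irf9 rose and Irf4 fell. Irf7 changed by a log2 fold change of 3.54 (SE 0.37), Irf1 by 1.44 (SE 0.27), Irf9 by 1.19 (SE 0.14) and Irf4 by −3.84 (SE 0.43), each past an edgeR adjusted p of 0.05. Thus 3 of 8 members were called higher and 1 of 8 lower, where 30.3% of all tested genes were called higher and 33.8% lower, so the number of members called is near the background of a culture in which most genes moved. The same 4 members were those whose groups did not overlap, 3 higher and 1 lower, against 28.7% and 31.5% of all tested genes. For Irf2, Irf3, Irf5 and Irf8 the groups overlapped and no change was called. The calls rest on the TMM scaling of libraries, also used for the levels below (CPM, a count relative to the effective library size), which assumes that most genes do not change. TMM set the effective size of the vehicle libraries at 28164685 to 31529101 and that of the LPS libraries at 16709933 to 21441054, although the totals were alike. Scaling by library totals instead shifted the median log2 fold change of all tested genes by −0.68.

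The libraries held 20071921 to 30604447 counts, and no pair within a group was identical or agreed within counting error. LPS replicate 3 stood farthest from its group, with a chi-square per degree of freedom of 97.7 to 139.8 against the others. Replicates 2 and 4 were the closest pair in both groups. Their value was 6.45 in LPS, where other pairs had 54.9 to 139.8, and 10.1 in vehicle, where other pairs had 32.8 to 60.8. The p-values treat these libraries as independent, which was not tested. Of 8 microglial markers all were tested and 7 were lower after LPS, with a summed level of 7426 to 8525 CPM in vehicle and 1182 to 1671 CPM after LPS. The markers of other cells that also moved were those of oligodendrocytes (5 genes, 79.3 to 114.2 CPM in vehicle and 18.3 to 23.0 CPM after LPS, with Mobp at 0), oligodendrocyte precursors (5 genes, 14.8 to 50.7 and 0.47 to 7.24 CPM), endothelial cells (5 genes, 31.1 to 73.5 and 162.6 to 254.1 CPM, with Cldn5 at 0) and fibroblasts (4 genes, 0.07 to 2.89 and 5.14 to 20.9 CPM). The rise of the fibroblast sum came mostly from Dcn, the only one tested (mean 0.14 CPM in vehicle and 8.90 CPM after LPS). Lum was also higher (0.04 and 0.55 CPM), but Col1a1 (0.53 and 0.095 CPM) and Col1a2 (0.39 and 0.027 CPM) were lower. The 7 astrocyte markers summed to 17.7 to 42.5 CPM in vehicle and 39.0 to 118.6 CPM after LPS, where Gja1 alone was called higher (mean 0.87 CPM in vehicle and 48.6 CPM after LPS) and Aqp4, Aldh1l1 and Gfap were called lower. The 5 neuronal markers summed to 1.84 to 6.39 and 1.77 to 5.51 CPM, with Snap25 and Syt1 called lower. Of 5 T and NK cell markers none passed 3 counts in any library. In bulk RNA, fewer cells of a type and less RNA per cell cannot be told apart, and the part of other cells in the results below was not tested.

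The stretches before the annotated start of 4 members are shown with matches to elements that STAT dimers, NF-kB or the family itself bind. The part of such elements in the changes after LPS was not tested. The sequences are RefSeq promoter windows of GRCm38.p6, read 5′ to 3′ in the direction of the gene, and capitals mark matches to the motifs searched. For Irf7, bases that an annotated exon covers were left out, and for Irf2 the last 13 bases lie in one.
Irf1, chr11:53769764-53770013, plus strand: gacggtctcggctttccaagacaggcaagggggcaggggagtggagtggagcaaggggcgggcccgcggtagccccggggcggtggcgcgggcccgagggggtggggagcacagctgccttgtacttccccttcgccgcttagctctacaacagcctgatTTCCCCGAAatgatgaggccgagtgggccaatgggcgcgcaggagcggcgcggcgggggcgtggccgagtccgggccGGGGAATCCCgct
Irf2, chr8:46739495-46739744, plus strand: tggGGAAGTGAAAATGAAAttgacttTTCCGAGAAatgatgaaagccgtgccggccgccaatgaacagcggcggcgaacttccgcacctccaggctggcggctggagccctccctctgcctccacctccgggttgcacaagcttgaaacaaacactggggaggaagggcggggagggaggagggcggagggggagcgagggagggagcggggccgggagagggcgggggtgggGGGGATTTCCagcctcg
Irf8, chr8:120736108-120736357, plus strand: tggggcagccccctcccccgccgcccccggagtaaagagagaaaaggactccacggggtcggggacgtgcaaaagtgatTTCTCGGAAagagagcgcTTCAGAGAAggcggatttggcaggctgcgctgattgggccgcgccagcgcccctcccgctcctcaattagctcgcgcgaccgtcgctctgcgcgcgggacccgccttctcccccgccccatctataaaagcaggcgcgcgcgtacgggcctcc
Irf7, chr7:141266482-141266674, minus strand: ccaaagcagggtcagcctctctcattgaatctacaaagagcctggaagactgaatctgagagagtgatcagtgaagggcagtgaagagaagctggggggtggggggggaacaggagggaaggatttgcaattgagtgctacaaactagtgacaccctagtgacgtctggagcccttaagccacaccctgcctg

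The motifs were searched on both strands of all 11 windows of the 8 members, from 250 bases before to 50 bases after each start. The gamma-activated site (TTCNNNGAA), which STAT dimers bind, stood once before Irf1, at bases −90 to −82, once before Irf2 and at 2 places before Irf8, where 8.3% of 32851 RefSeq windows hold it. The NF-kB consensus stood before Irf1 at bases −13 to −4 and before Irf2 at bases −17 to −8, and 4.51% of all windows hold it. The interferon-stimulated response element (GAAA, any 2 letters, GAAA) is in 3.44% of all windows, and the Ets-IRF composite element (GGAA, any 2 letters, GAAA), a joint site of Spi1 with Irf4 or Irf8, is in 2.72%. Among the members both were found before Irf2 alone, where the matches share 4 letters. None of the 4 motifs was in the windows of Irf3, Irf4, Irf5, Irf7 or Irf9. A match is a description of letters, and a window without one says nothing of the factors that act there.

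Irf7, a family member that interferon itself induces and that amplifies interferon production, lies on chromosome 7 from 141262706 to 141266481 of GRCm38 (ENSMUSG00000025498, minus strand). Vehicle replicates 1 to 4 held 208.0, 402.6, 627.4 and 202.7 CPM of it. LPS replicates 1 to 4 held 4116, 4409, 3802 and 4421 CPM. The groups were far apart, with the lowest LPS library above the highest vehicle library, and the means of 360.2 ± 201.0 and 4187 ± 292.8 CPM (SD, n = 4 each) differed 11.6-fold (log2 fold change 3.54, SE 0.37, edgeR adjusted p = 3.03e-05). The vehicle libraries differed among themselves 3.1-fold, whereas the LPS libraries differed 1.16-fold. Within same-numbered libraries the log2 difference ran from 2.60 in replicate 3 to 4.45 in replicate 4. Among all tested genes its log2 fold change stood at rank 444 from the highest.

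The vehicle libraries with more Irf7, replicates 2 and 3, were also those with more of the genes that interferon induces. The mean log2 CPM of 11 known targets of the Irf9 complex was 5.92, 6.93, 7.35 and 6.18 in vehicle replicates 1 to 4. In LPS replicates 1 to 4 it was 9.15, 9.48, 9.99 and 9.46, so the targets were highest in replicate 3, where Irf7 was lowest of its group. Isg15, an interferon-induced ubiquitin-like modifier, had 2312, 4868, 8192 and 2417 counts in the vehicle libraries and 23296 to 41769 counts in the LPS libraries.

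**Figure D1:**
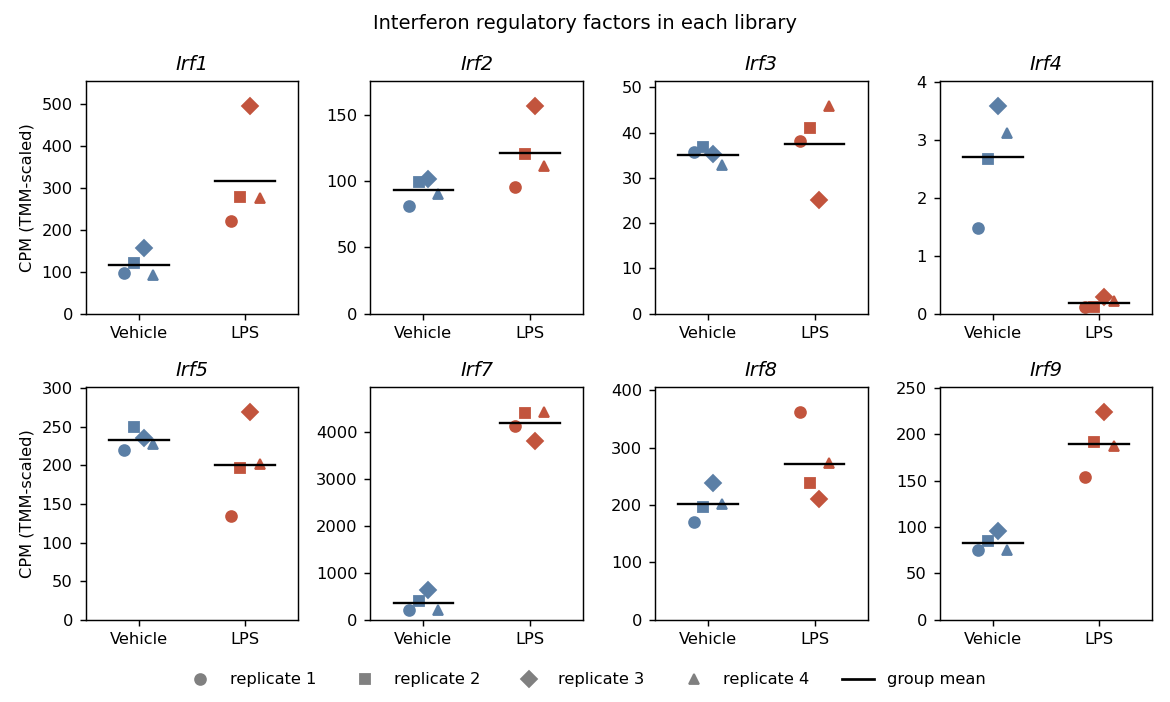
Level of each interferon regulatory factor in each library (y axis, TMM-scaled CPM, from 0, with its own scale per gene) in 4 vehicle and 4 LPS libraries; points are libraries, marker shapes are replicate numbers and black lines are group means. The groups are apart for Irf1, Irf4, Irf7 and Irf9 and overlap for Irf2, Irf3, Irf5 and Irf8.

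Irf3, the partner of Irf7 that cells make without stimulation and switch on by phosphorylation, lies on chromosome 7 from 44997648 to 45002848 (ENSMUSG00000003184). Its level was 35.8, 36.7, 35.3 and 32.8 CPM in vehicle replicates 1 to 4 and 38.1, 40.9, 25.1 and 45.9 CPM in LPS replicates 1 to 4. The vehicle libraries were the most even of any member (CV 4.69%), and the LPS libraries lay on either side of them. The log2 fold change was 0.09 (SE 0.17, edgeR adjusted p = 0.639). The value rests on LPS replicate 3, without which the log2 fold change was 0.25 and was called (edgeR adjusted p = 0.0290). It was −0.05 under upper quartile factors and −0.57 under library totals, so its direction was not settled by these data.

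Irf9, which gives the interferon signalling complex its DNA specificity, lies on chromosome 14 from 55603571 to 55610030 (ENSMUSG00000002325). It was at 75.2, 85.5, 95.9 and 75.8 CPM in vehicle replicates 1 to 4 and at 154.4, 191.7, 224.1 and 187.9 CPM in LPS replicates 1 to 4. No LPS library came near the vehicle range, and the means, 83.1 ± 9.73 and 189.5 ± 28.5 CPM (SD, n = 4 each), differed 2.28-fold (edgeR adjusted p = 5.09e-05). The increase was even across same-numbered libraries, with log2 differences between 1.04 and 1.31. Exons of Rnf31 on the same strand cover 2.28% of its exonic bases. Its partner rose as well. Stat2, the subunit that activates transcription, changed by a log2 fold change of 1.99 (SE 0.24, edgeR adjusted p = 6.71e-05).

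Irf1, an activator induced by interferon gamma and by inflammatory signals, lies on chromosome 11 from 53770014 to 53778374 (ENSMUSG00000018899). Vehicle replicates 1 to 4 held 96.9, 121.1, 156.7 and 91.3 CPM. LPS replicates 1 to 4 held 219.6, 276.8, 494.8 and 275.6 CPM, with replicate 3 well above the other LPS libraries. The groups did not overlap, and the means of 116.5 ± 29.8 and 316.7 ± 121.7 CPM (SD, n = 4 each) differed 2.72-fold (edgeR adjusted p = 0.00108). Without LPS replicate 3 the log2 fold change was 1.15 (edgeR adjusted p = 9.07e-04).

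Irf2, the antagonist of Irf1 at shared elements, lies on chromosome 8 from 46739732 to 46847458 (ENSMUSG00000031627). Its level was 81.1, 99.0, 101.7 and 90.2 CPM in vehicle replicates 1 to 4 and 95.7, 120.8, 156.7 and 111.3 CPM in LPS replicates 1 to 4. Each LPS library lay above the vehicle library of its number, but the groups overlapped. The log2 fold change of 0.38 (SE 0.15) did not pass the threshold (edgeR adjusted p = 0.0519). With the replicate number as a block it was 0.36 and was called (edgeR adjusted p = 0.0210), and under library totals it was −0.31, so both the call and the direction depended on the fit. It was also called without LPS replicate 1 (0.49, edgeR adjusted p = 0.0159), without vehicle replicate 2 (0.43, edgeR adjusted p = 0.0498) or without vehicle replicate 3 (0.48, edgeR adjusted p = 0.0223). The pair moved apart in every library. Counts of Irf1 were 1.20, 1.22, 1.54 and 1.01 times those of Irf2 in vehicle replicates 1 to 4 and 2.30, 2.29, 3.16 and 2.48 times in LPS replicates 1 to 4. This ratio within a library does not depend on scaling, and its log2 value differed by 1.04 between the groups, which did not overlap (pooled SD 0.23).

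Irf4, a factor of lymphocytes, dendritic cells and alternatively activated macrophages, lies on chromosome 13 from 30749226 to 30766976 (ENSMUSG00000021356). It was scarce, with 42, 77, 113 and 88 counts in vehicle replicates 1 to 4 and 2, 2, 6 and 4 counts in LPS replicates 1 to 4. The groups were far apart, at 2.71 ± 0.91 and 0.18 ± 0.08 CPM (SD, n = 4 each), with a log2 fold change of −3.84 (SE 0.43, edgeR adjusted p = 4.10e-05). The error of the LPS level is set by a few counts. Among markers of other cells that use Irf4, Cd79a, Flt3 and Cd209a had at most 3 counts in every library. The B cell marker Ms4a1 held 2 to 11 counts per vehicle library and 13 to 20 per LPS library and was called higher (edgeR adjusted p = 0.00366), and Cd79b held 9 to 12 and 0 to 2 counts. The 5 dendritic cell markers summed to 2.24 to 3.37 CPM in vehicle and 5.14 to 17.9 CPM after LPS, with Xcr1 at 9 to 20 and 92 to 380 counts, but Zbtb46, a factor of conventional dendritic cells in that list, held 52 to 76 counts per vehicle library and 0 to 4 per LPS library. The part of such cells in the change of Irf4 was not tested.

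Irf8, the partner of Spi1 in microglial development, lies on chromosome 8 from 120736358 to 120756694 (ENSMUSG00000041515). Its level was 170.0, 197.5, 238.6 and 201.5 CPM in vehicle replicates 1 to 4 and 362.2, 238.8, 211.4 and 273.8 CPM in LPS replicates 1 to 4. LPS replicate 1 was the highest library and LPS replicate 3 lay inside the vehicle range. The log2 fold change of 0.43 (SE 0.18) did not pass the threshold (edgeR adjusted p = 0.0588). Without LPS replicate 3 it was 0.54 and was called (edgeR adjusted p = 0.0199), without LPS replicate 1 it was 0.27 (edgeR adjusted p = 0.139), and under library totals it was −0.23. Without vehicle replicate 3 it was 0.59 and was called (edgeR adjusted p = 0.0319).

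The balance of Irf8 with its partner and its relative was read within libraries. Counts of Irf8 were 0.64 to 0.82 times those of Spi1 in vehicle and 0.53 to 0.81 times after LPS, with overlapping groups (log2 difference −0.19, pooled SD 0.25). Spi1 itself rose by a log2 fold change of 0.64 (SE 0.20, edgeR adjusted p = 0.0183), a value that was 0.50 and not called with upper quartile factors and −0.01 under library totals. Its call was also lost without LPS replicate 4 (0.55, edgeR adjusted p = 0.0525), without vehicle replicate 2 (0.65, edgeR adjusted p = 0.0512) or without vehicle replicate 4 (0.63, edgeR adjusted p = 0.0550). Counts of Irf8 were 64.5 to 115.7 times those of Irf4 in vehicle and 755.3 to 3026 times after LPS, a log2 difference of 4.13 with no overlap of the groups. The low counts of Irf4 decide its size, which was 3.03 with a pseudocount of 5 in place of 0.5 counts.

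Irf5, a factor that drives cytokine genes such as Il12b and Il6 in macrophages, lies on chromosome 6 from 29526625 to 29541871 (ENSMUSG00000029771). Its level was 220.6, 250.2, 235.0 and 227.6 CPM in vehicle replicates 1 to 4 and 134.8, 197.1, 269.1 and 202.1 CPM in LPS replicates 1 to 4. The vehicle libraries were close together (CV 5.45%) and the LPS libraries spread on both sides of them (CV 27.3%), and the log2 fold change was −0.22 (SE 0.18, edgeR adjusted p = 0.321). Without LPS replicate 3, the highest library, it was −0.38 and was called (edgeR adjusted p = 0.0466), and without LPS replicate 1, the lowest, it was −0.06 (edgeR adjusted p = 0.726). Exons of Tnpo3 on the opposite strand cover 14.2% of the exonic bases of Irf5, so its count is uncertain if counting ignored strand, which is not given in the sources used here. The log2 ratio of Irf8 to Irf5 was −0.22 ± 0.18 in vehicle and 0.45 ± 0.73 after LPS (SD, n = 4 each), with overlapping groups.

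**Figure D2:**
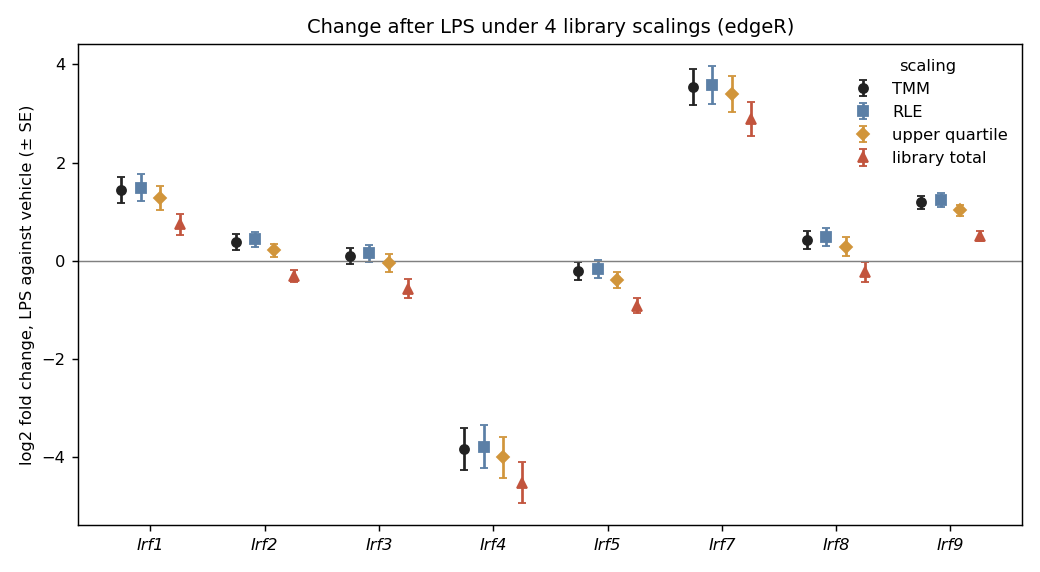
Log2 fold change of each member after LPS (y axis, points with SE, edgeR on 4 LPS and 4 vehicle libraries) under 4 ways of scaling the libraries, marked by colour and shape. Irf1, Irf7 and Irf9 are above 0 and Irf4 and Irf5 below 0 under all 4. Irf2 and Irf8 are below 0 under library totals only, and Irf3 under library totals and upper quartile factors.

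The 4 called members kept their direction and their call under all 4 scalings. The smallest values for those that rose were the ones with library totals. They were 2.885 for Irf7 (edgeR adjusted p = 5.97e-05), 0.74 for Irf1 (edgeR adjusted p = 0.0116) and 0.51 for Irf9 (edgeR adjusted p = 0.00176). Under library totals 4 members were lower, Irf2, Irf3 and Irf5 beside Irf4, but there 81.0% of all called genes were lower as well, against 52.8% with TMM.

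To compare the members with each other, levels were divided by the length of each gene's joined exons and are given in CPM per kilobase. In vehicle libraries Irf7 (95.4 ± 53.2, SD, n = 4) and Irf5 (80.3 ± 4.37) were highest, and their order was not settled, since Irf7 exceeded Irf5 in 2 of 4 libraries. Irf1 (29.3 ± 7.49) and Irf8 (28.6 ± 3.99) followed with overlapping ranges. Below them came Irf9 (15.4 ± 1.81), Irf2 (12.6 ± 1.26), Irf3 (10.2 ± 0.48) and Irf4 (0.55 ± 0.19), whose ranges were apart from one another. After LPS the level of Irf7 was 1109 ± 77.5 CPM per kilobase, above every other member in all 4 libraries. Irf1 (79.7 ± 30.6), Irf5 (69.1 ± 18.9), Irf8 (38.5 ± 9.30) and Irf9 (35.2 ± 5.30) came next, each overlapping in range with its neighbour. Irf2 (16.4 ± 3.50) and Irf3 (10.9 ± 2.57) also overlapped, and Irf4 was last (0.037 ± 0.017). With the longest transcript as the length, Irf8 stood above Irf1 and Irf2 above Irf9 in vehicle libraries, while the order after LPS was as given.

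The make-up of the family therefore differed between the groups. The shares below use the length of joined exons and depend on it. With the longest transcript as the length, the vehicle mean was 111.2 CPM per kilobase for Irf7 and 54.5 for Irf1, and after LPS 1292 and 148.2. Irf7 took 25.6%, 36.6%, 45.8% and 24.4% of the summed level per kilobase of the 8 members in vehicle replicates 1 to 4. It took 84.1%, 83.2%, 76.1% and 82.9% in LPS replicates 1 to 4, with no overlap between the groups. The share of Irf5 was 30.7% ± 6.25 in vehicle and 5.09% ± 1.41 after LPS (SD, n = 4 each). The summed level was 272.4 ± 69.7 CPM per kilobase in vehicle and 1359 ± 57.5 after LPS, and without Irf7 it was 177.0 ± 16.9 and 249.8 ± 47.5 CPM per kilobase. The rise of the sum without Irf7 rests on the TMM scaling. With library totals as the size, Irf5 was at 101.5 in vehicle and 54.0 after LPS, and Irf2, Irf3, Irf4 and Irf8 were also lower. Irf1 (36.8 and 61.7) and Irf9 (19.5 and 27.7) were higher.

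**Figure D3:**
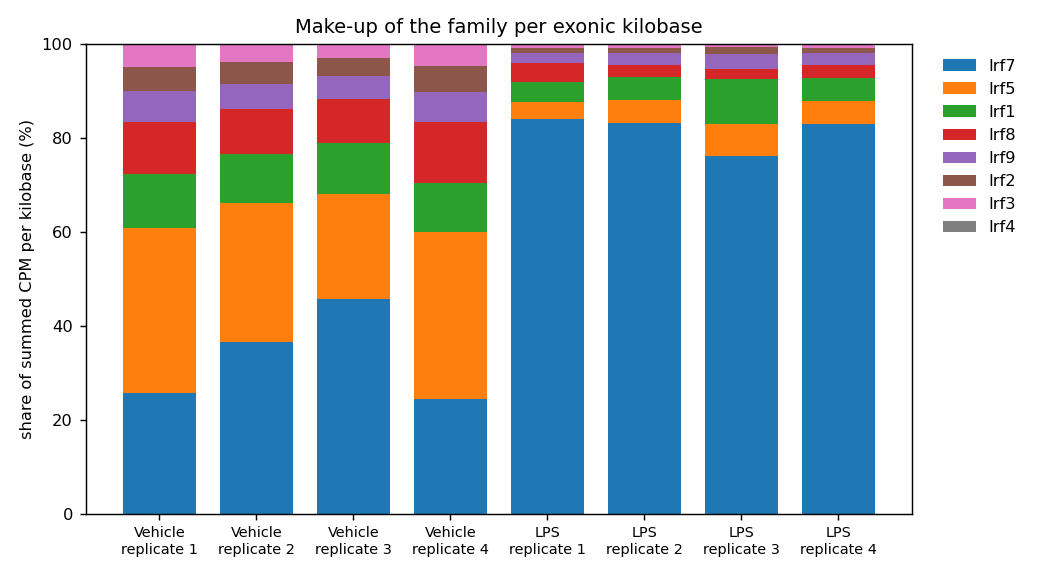
Share of each member in the summed level per exonic kilobase of the 8 interferon regulatory factors (y axis, percent, stacked bars from 0 to 100) in each of the 4 vehicle and 4 LPS libraries. Irf7 takes 24.4% to 45.8% of a vehicle library and 76.1% to 84.1% of an LPS library.

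Counts of Irf9 were set against those of Stat2 within libraries, since both proteins sit in the same complex. The ratio was 0.27, 0.18, 0.18 and 0.26 in vehicle replicates 1 to 4, lower in the libraries with more Irf7. It was 0.122, 0.123, 0.122 and 0.123 in LPS replicates 1 to 4. The log2 ratio differed by −0.85 between the groups, with no overlap, and its SD among LPS libraries, 0.0059, was below the counting error of a single library (0.022 to 0.030 on the log2 scale). The log2 ratio of Irf7 to Irf3, the induced to the standing kinase-activated member, was 3.19 ± 0.76 in vehicle and 6.83 ± 0.28 after LPS (SD, n = 4 each), again with no overlap.

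**Figure D4:**
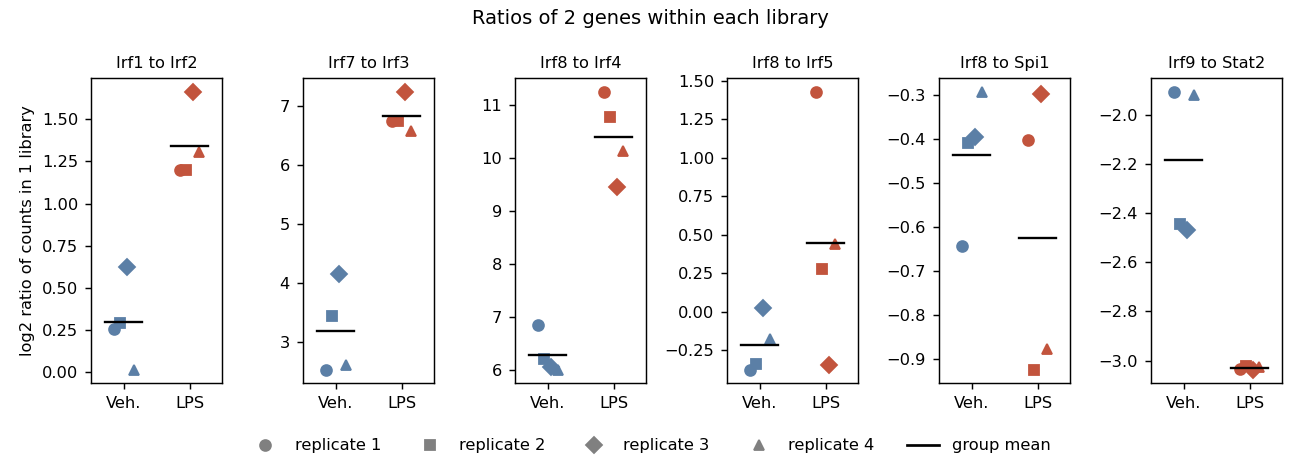
Log2 ratio of the counts of 2 genes within each library (y axis, with its own scale per panel) for 6 pairs in 4 vehicle (Veh.) and 4 LPS libraries; points are libraries, marker shapes are replicate numbers and black lines are group means. The groups are apart for Irf1 to Irf2, Irf7 to Irf3, Irf8 to Irf4 and Irf9 to Stat2 and overlap for Irf8 to Irf5 and Irf8 to Spi1.

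The genes around the family were read from fixed lists, against a median log2 fold change of −0.11 over all tested genes. The counts in each list stand beside 30.3% of all tested genes called higher and 33.8% called lower. Of 29 sensors, adaptors and kinases that act on these factors, 17 rose and 5 fell (median 1.24). The kinases that phosphorylate Irf3 and Irf7 both rose, Ikbke by a log2 fold change of 2.41 (SE 0.27, edgeR adjusted p = 4.12e-05) and Tbk1 by 1.61 (SE 0.13, edgeR adjusted p = 5.98e-06). Tank, the scaffold that holds these kinases, rose by 2.47 (SE 0.21), and Tlr3, the receptor for double-stranded RNA, by 2.43 (SE 0.27). The LPS receptor Tlr4 fell by 1.17 on the log2 scale (edgeR adjusted p = 0.00487) and the DNA receptor Tlr9 by 1.19 (edgeR adjusted p = 0.0439). The call of Tlr9 was lost with RLE factors and without any of LPS replicates 2 and 4 and vehicle replicates 2, 3 and 4 (edgeR adjusted p from 0.0515 to 0.109). 

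Of 18 binding partners and cofactors, 17 were tested, 11 rose and 4 fell (median 0.59). With the replicate block 10 rose and 3 fell, as Junb (1.06, edgeR adjusted p = 0.0804) and Batf3 were not called. Batf and Batf2, leucine zipper proteins that pair with Irf4 and Irf8 on composite elements, rose by log2 fold changes of 4.01 (SE 0.32) and 3.90 (SE 0.28). Batf3, their relative in dendritic cells, held 22 to 51 counts per vehicle library and 3 to 14 per LPS library (edgeR adjusted p = 0.0388), a call that was lost with the replicate block and when any library but LPS replicate 4 was left out (edgeR adjusted p from 0.0528 to 0.125). Irf2bp2, a corepressor that binds Irf2, fell by 2.04 on the log2 scale (SE 0.23, edgeR adjusted p = 4.73e-05). Under library totals 4 of these partners were higher, and Crebbp, Ep300, Rela and Spi1 had log2 fold changes below 0.

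Of 17 proteins that restrain the family or its production, 9 rose and 2 fell (median 0.72). Tnfaip3, a ubiquitin-editing enzyme that damps Toll-like receptor signals, rose by a log2 fold change of 4.64 (SE 0.15, edgeR adjusted p = 3.76e-08). Usp18, which blocks the interferon receptor, rose by 4.31 (SE 0.33) and Socs1, which blocks its kinases, by 3.79 (SE 0.38). The translational repressors of Irf7 parted, as Eif4ebp2 fell by 1.96 on the log2 scale (SE 0.10) and Eif4ebp1 rose from 19.0 ± 1.68 to 71.0 ± 15.9 CPM (SD, n = 4 each, edgeR adjusted p = 6.43e-06). Foxo3, a repressor of Irf7 transcription, fell by 0.49 on the log2 scale (edgeR adjusted p = 0.00329).

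Known targets of Irf3, Irf7, Irf1 and the Irf9 complex were mostly higher. Of 8 targets of Irf3 and Irf7, 6 were tested and all 6 rose (median 3.70), led by the chemokines Ccl5 (8.30, SE 0.49) and Cxcl10 (5.21, SE 0.53). The other two, the interferon genes Ifnb1 and Ifna4, were too low to test, Ifnb1 with 2 to 7 counts per vehicle library and 0 to 15 per LPS library, and 1 count of Ifna4 in all libraries together. All 11 targets of the Irf9 complex rose (median 2.33), among them the antiviral genes Rsad2 (5.81, SE 0.65) and Oasl1 (4.93, SE 0.53). Of 12 targets of Irf1, 10 were tested and all 10 rose (median 2.41), with Nos2, which makes nitric oxide, at 14 to 51 counts per vehicle library and 187890 to 261105 per LPS library. Ciita, the master activator of MHC class II genes and a target of Irf1, did not follow, with 6 to 40 counts per vehicle library and 0 in every LPS library. It did not pass the filter, and with no filter it was called lower (edgeR adjusted p = 5.75e-04), as with DESeq2 (adjusted p = 7.52e-06).

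The genes tied to Irf8 and to Irf4 held calls in both directions, and the tested targets of Irf5 rose. Of 4 targets of Irf5, 3 were tested and rose, Il6, Tnf and Il12b, the last with 0 or 1 count per vehicle library and 197 to 3863 per LPS library. Of 9 genes tied to Irf8 in reactive microglia, 4 rose, 3 fell and 2 were not called (median 0.01). P2rx4, an ATP-gated channel of reactive microglia, rose by a log2 fold change of 1.14 (SE 0.17, edgeR adjusted p = 2.28e-04), and Ccl2 rose by 6.93 (SE 0.74), whereas the fractalkine receptor Cx3cr1 fell by 7.26 on the log2 scale (SE 0.22) and Tlr2 by 3.05 (SE 0.24). Genes tied to Irf4 in alternatively activated macrophages parted too. Of 8 such genes 5 were tested, 3 rose and 2 fell. The mannose receptor Mrc1 fell by 4.07 on the log2 scale (SE 0.24), while Clec10a held 34 to 406 counts per vehicle library and 0 in every LPS library. Arg1, which breaks down arginine, held 2 to 7 counts per vehicle library and 915 to 7440 per LPS library.

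**Figure D5:**
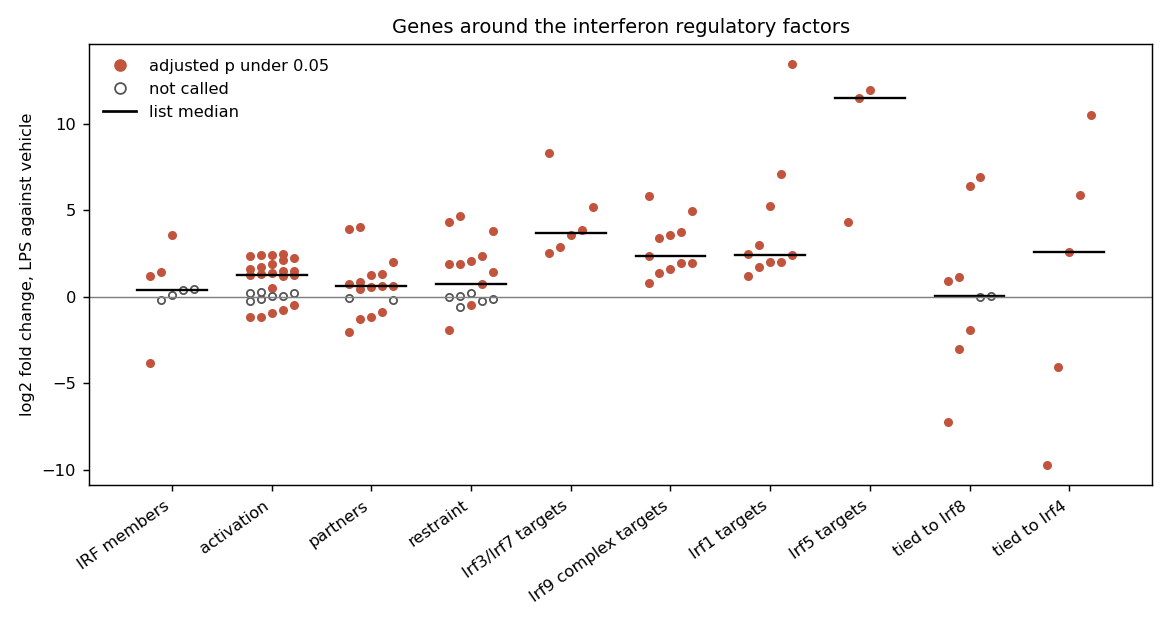
Log2 fold change after LPS (y axis, edgeR) of each tested gene in the list of members and in 9 lists of genes around them (x axis); filled points have an adjusted p under 0.05, open points do not, and black lines are list medians. All tested targets of Irf3 and Irf7, of the Irf9 complex, of Irf1 and of Irf5 are above 0, while the lists tied to Irf8 and Irf4 hold called genes on both sides.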

How the data were processed

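RNA of primary murine microglia was sequenced in 50-base single-end reads. The authors deposited raw counts per Ensembl gene for 4 LPS and 4 vehicle libraries, made with HTSeqGenie and GSNAP from uniquely aligned reads on GRCm38, without normalization. The library kit is a stranded TruSeq kit by the labels and a different TruSeq kit by the methods, and the annotation release is not given in the sources used here. All columns were mapped to a sample, and 52403 of 52636 identifiers had a GENCODE vM21 symbol.

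LPS was compared with vehicle by the two-sided quasi-likelihood test of edgeR 4.0.16 in R 4.3.3 (TMM factors, filterByExpr at its settings of 10 counts per library and 15 in total). P-values were adjusted by Benjamini-Hochberg over the tested genes and called under 0.05. The SE is the log2 fold change over the root of the F statistic. DESeq2 1.42.0 was an alternative. On simulated counts of this comparison, edgeR over 14253 genes recovered 72.9% of genes changed by 1 and 100% of those changed by 2 on the log2 scale, and 5.43% of its calls were false. DESeq2 recovered 76.0% and 100%, with 11.1% false. The simulation changed only 96 and 104 of the tested genes by these sizes, with the same dispersion for all genes, taken from the vehicle libraries. It held no shift in library composition and no likeness of same-numbered libraries. Its rates therefore need not hold for the real comparison, in which most genes moved. Levels and figures were computed in Python 3.11.15 with pandas 2.3.3 and matplotlib 3.10.9. The totals make counting error small for every member but Irf4, and errors of ratios from counts cover counting error only.

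Libraries that share a number were compared by their departures from the means of their groups. These correlated across 8382 genes with r of 0.36, 0.18, 0.18 and 0.11, all above 0.1. The number was therefore used as a block in an alternative fit and for differences within same-numbered libraries. Vehicle 2 with LPS 4 (0.14) and vehicle 4 with LPS 2 (0.12) were also above 0.1, the latter above the matched pair of vehicle 4. Pairs 2 and 4 are therefore not settled, and any pairing comes from the data and not from the labels. The main fit has no block, and blocked values are given where they change a call.

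The members, lists and tests were chosen with earlier results of these data known. Named genes are the members, Spi1, Stat2, from each list the called genes with the largest change (up to 3 higher and 2 lower, mean log2 CPM of at least 1), genes with at most 3 counts throughout a group, and the gene with the nearest profile to each member. Tbk1, Eif4ebp1, Batf3, Zbtb46, Ifnb1, Ifna4, Crebbp, Ep300, Rela, Ticam1, Junb, Xcr1, Ms4a1, Cd79b and the astrocyte, neuronal and fibroblast markers were added after their values were seen. The alternatives were DESeq2, RLE and upper quartile factors, 2 other filters, the block, stricter thresholds, each library left out in turn, another gene length and another pseudocount. Library totals were added after seeing the data. Some genes of the lists are not reported here.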

Additional observations from a re-analysis of the deposited data

How the results depend on the processing

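The calls of Irf1, Irf7 and Irf9 kept their direction and their side of the threshold under every alternative, and that of Irf4 under every alternative that kept the gene. The number of members called higher, 3, was 5 with DESeq2 or RLE factors, 4 with the replicate block and 3 to 5 with a library left out. The added calls were of Irf2 and Irf8, and of Irf3 without LPS replicate 3. The number called lower, 1, was 0 with at least 10 counts in every library, which removes Irf4, 4 under library totals, and 1 to 2 with a library left out. Irf2 was 0.43 with DESeq2, 0.44 with RLE factors, 0.36 with the replicate block and −0.31 under library totals, all called, and 0.24 to 0.49 with a library left out. Irf8 was 0.48 with DESeq2 and 0.48 with RLE factors, both called, −0.23 under library totals, not called, and 0.27 to 0.59 with a library left out. Irf3 was −0.053 with upper quartile factors, −0.57 under library totals and −0.011 to 0.25 with a library left out, lowest without LPS replicate 4. Irf5 was −0.91 under library totals, and −0.38 to −0.058 with a library left out. Beside Irf2, the replicate block changed no call of a member, and in the lists it lost those of Junb and Batf3.

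Over all genes, 4191 were called higher and 4686 lower. Under library totals these were 1988 and 8457, and with an absolute log2 fold change of at least 1 they were 2224 and 2998. Calls were higher in 47.2% of cases with TMM, 39.6% with upper quartile factors and 19.0% under library totals. Among the lists, the 5 lower genes of the activation list were 3 with RLE factors and 11 under library totals, the 11 higher partners were 4, the 2 lower restraining genes were 8 and the 3 lower genes tied to Irf8 were 5 under library totals, and 1 target of Irf1, Ciita, was lower with DESeq2, which tests genes the filter removes. The log2 ratio of Irf8 to Irf4 was 3.03 with a pseudocount of 5 counts. The cause of the other differences was not tested. Counts of 2 to 6 limit the LPS level of Irf4.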

Other observations

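For each member the gene with the most similar profile over the 8 libraries was sought among all tested genes, as the smallest root mean square difference of centred log2 CPM. Isg15 lay nearest to Irf7, at 0.15 against a spread of 1.91 of Irf7 itself. Rtp4 lay nearest to Irf1 (0.075 against 0.80) and Trpv2 to Irf9 (0.053 against 0.61), with Ticam1, the adaptor that links Toll-like receptors to Irf3, next to Irf9 at 0.057. Tab2 lay nearest to Irf2 (0.039 against 0.27), Gmip to Irf3 (0.065 against 0.23) and Rcbtb1 to Irf5 (0.050 against 0.28). Mrpl17 lay nearest to Irf8, but at 0.13 against a spread of 0.31 the likeness was weaker. The profile of Irf4 is compressed by the pseudocount of 0.5 CPM at its low level, and its nearest gene, Cenpm, had a log2 fold change of −6.54 against −3.84. These nearest genes were the same with RLE factors for all 8 members. With 2 groups and most genes changed, a small difference is partly the shared change between groups.

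The spread within groups was not alike across members. Vehicle replicate 3 was the highest vehicle library for 6 of 8 members and LPS replicate 3 the highest LPS library for 5 of 8, while LPS replicate 3 was the lowest for Irf3, Irf7 and Irf8. LPS replicate 1 was the lowest for Irf1, Irf2, Irf5 and Irf9 and the highest for Irf8. The CV of Irf7 was 55.8% among vehicle libraries and 6.99% among LPS libraries, whereas that of Irf3 was 4.69% and 23.6%. No value of a member or ratio in 28 groups of 4 libraries lay far enough from the others to pass Dixon's limit at 95%.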
